A study of Homo sapiens with 8 samples.

Results

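The enzymes described here are the cytochromes P450 (CYP), UDP-glucuronosyltransferases (UGT), glutathione S-transferases (GST, with the microsomal MGST genes), sulfotransferases (SULT), aldo-keto reductases of family 1 (AKR1), aldehyde dehydrogenases (ALDH), carboxylesterases (CES) and NAD(P)H quinone dehydrogenases (NQO). Members were chosen by gene symbol and came to 206 probes for 143 gene symbols, of 50599 probes that were not controls. RNA was measured in HCT-116 cells, an established human colorectal carcinoma line, on 8 one-colour arrays, 2 for each of 4 groups. The groups were untreated parental cells (WT), parental cells given 20 µM NU6102 for 24 h (WT+NU6102), untreated cells in which CDK2 had been knocked out (CDK2 KO, CDK2-/-), and R50, a line that had become resistant to 50 µM NU6102 and was kept in that concentration. NU6102 inhibits the cell cycle kinases CDK1 and CDK2, and it was present when WT+NU6102 and R50 were sampled and absent from WT and CDK2 KO. CDK2 KO and R50 were each represented by 1 line, so a property of that line and the effect of the knockout or of the selection cannot be told apart.

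These families carry most of the chemistry by which cells alter and clear foreign compounds, and the same enzymes handle hormones, bile acids, retinoids, vitamin D and fatty acids. The P450s, ALDH, AKR1, CES and NQO enzymes oxidize, reduce or hydrolyse their substrates (phase I), and the UGT, GST and SULT enzymes attach glucuronic acid, glutathione or sulfate (phase II). Many are held at low levels and are induced through ligand-activated or stress-activated transcription factors, among them the aryl hydrocarbon receptor (AHR), the pregnane X receptor, the vitamin D receptor and NRF2. Liver and intestine are the tissues best known for them.

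Each level below is the log2 of a probe's processed signal minus the log2 75th percentile of its array, so levels of different probes are not on 1 scale and are not compared. A probe entered the test where some group had both of its arrays flagged by the scanner software as well above background, and it was called if limma's adjusted p, over all 28677 tested probes, was under 0.05 and the change at least 2-fold. Changes are log2 values, and the standard error (SE) of a probe was the same in every comparison, since all groups had 2 arrays. The labels do not say that the arrays of a group came from separate cultures, so the p-values measure the spread between these arrays. WT and WT+NU6102 lay on 1 slide and CDK2 KO and R50 on the other. The effect of NU6102 on WT, and the difference between R50 and CDK2 KO, were therefore read within a slide. In the remaining comparisons the slide cannot be told apart from the group.

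The array held 58717 non-control spots, of which 32376 to 36206 were well above background on each array and none was saturated, and arrays of the same group correlated at 0.994 to 0.996 over probes. The CDK2 probe (hg19 chr12:56365789-56365848) read -0.76 on each WT array, -0.44 and -0.42 in WT+NU6102, -1.56 and -1.51 in CDK2 KO and -1.10 and -1.09 in R50. It was lower in CDK2 KO than in WT by 0.77 (log2, a fold of 0.585, SE 0.04, limma adjusted p = 0.000268), and whether it lies in the deleted part is not given in the sources used here. Of 8 colorectal epithelial markers 7 were tested, with EPCAM at 6.21 to 6.61 on the 8 arrays, VIL1 well above background on none, and KRT20 above background in every group but WT+NU6102. Of 6 hepatocyte markers ALB, APOB, FGB and TTR were above background on no array, and only APOA1 and SERPINA1 were tested. Among markers of other cell types, COL1A1 of 5 fibroblast markers was called higher in CDK2 KO than in WT (1.22), while COL1A2, COL3A1 and LUM were well above background on no array and neither of 2 tested endothelial markers was called. Their part in the results was not tested.

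HCT-116 cells gave a measurable signal for 85 of the 143 member genes, through 112 probes. The quinone dehydrogenases were covered in full, with all 4 probes for NQO1 and NQO2 tested, and so were most aldehyde dehydrogenases, with 24 of 27 probes for 17 of 19 genes. Of the P450s, 43 of 86 probes were tested, for 33 of 58 genes. The numbers were 19 of 31 probes for glutathione S-transferases, 9 of 17 for sulfotransferases, 7 of 16 for aldo-keto reductases and 4 of 12 for carboxylesterases. The UDP-glucuronosyltransferases were the least covered family, with 2 of 13 probes tested, those of UGT2B10 and UGT2B11, and UGT1A6, UGT1A8, UGT2B4, UGT2B7 and UGT2B15 among the genes without a tested probe.

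Of the 94 member probes that were not tested, 78 were well above background on no array and 16 on 1 to 4 arrays. The 58 genes without a tested probe included P450s best known from liver, such as CYP2C8, CYP2C19 and CYP2E1, the bile acid enzymes CYP7A1 and CYP8B1, the estrogen-forming aromatase CYP19A1, the estrogen sulfotransferase SULT1E1, the retinoic acid-forming ALDH1A2, and AKR1C1, whose 3 probes were well above background nowhere. CYP3A4, the P450 with the widest range of drug substrates, was tested and stayed between -4.44 and -3.64 on the 8 arrays, with adjusted p from 0.249 to 0.894 over the 5 comparisons (limma). Of the 112 tested member probes, 91 had such a flag on every one of the 8 arrays and 21 did not, so a group in which such a probe was dim has only a bound.

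Member probes passed limma's tests in larger shares than all tested probes, by a narrow margin in some comparisons without a minimum fold. Of the tested member genes, 24 had more than 1 tested probe, and each probe was counted. Over the 4 groups, 37 of the 112 probes (33%) passed limma's F-test at an adjusted p under 0.001, against 21.2% of all tested probes, with 13 in the P450s, 8 in the aldehyde dehydrogenases, 7 in the glutathione S-transferases, 5 in the sulfotransferases, 2 in AKR1, 1 each in CES and NQO, and none in the UGT family. Leaving out any 1 of the 8 arrays brought the number down to between 9 and 18, and the share of all tested probes to between 3.28% and 5.88%. Against WT, 17 member probes (15.2%) were called with NU6102, 16 (14.3%) in CDK2 KO and 9 (8.04%) in R50, where the shares of all tested probes were 6.49%, 4.75% and 2.59%. R50 differed from CDK2 KO in 16 member probes (14.3%, background 5.19%) and from WT+NU6102 in 27 (24.1%, background 10.9%). At an adjusted p under 0.05 with no minimum fold, 55, 50, 44, 47 and 67 member probes passed in these comparisons. These were 49.1%, 44.6%, 39.3%, 42% and 59.8% of member probes, against 44.8%, 31.1%, 22.7%, 34.7% and 51.6% of all tested probes. With NU6102, and between R50 and WT+NU6102, the member share lay near that of all tested probes. Because a probe that enters through 1 group is likely to differ in another, the 91 probes above background throughout were counted as well. They gave 11 calls with NU6102, 10 in CDK2 KO, 5 in R50, 10 between R50 and CDK2 KO and 19 between R50 and WT+NU6102, where 4.64%, 3.28%, 1.57%, 3.45% and 8.85% of all probes under the same filter were called.

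**Figure D1:**
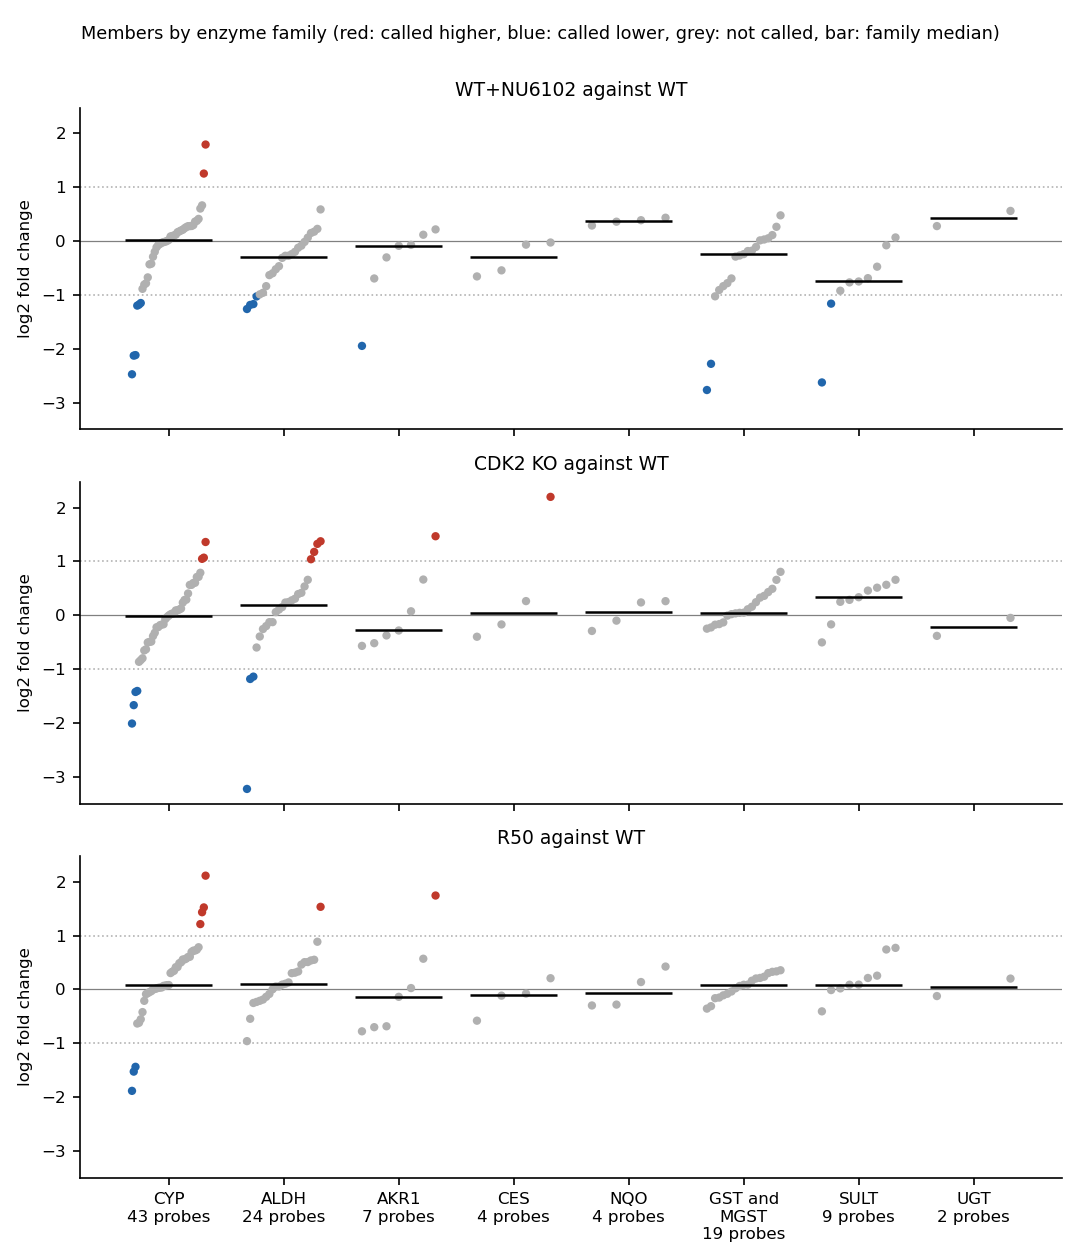
Log2 fold changes of the 112 tested member probes (vertical axis) by enzyme family (horizontal axis), in WT+NU6102, CDK2 KO and R50 against WT. Each point is 1 probe, red or blue where called and grey otherwise, and bars are family medians. The blue points outnumber the red with NU6102, 15 to 2, while CDK2 KO has 9 red and 7 blue and R50 6 red and 3 blue.

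With NU6102 for 24 h, 2 member probes were called higher and 15 lower, where 1.28% and 5.21% of all tested probes were. The lower ones include the second ALDH3A1 probe, which was well above background in neither group and so gives no direction. The risers were CYP1A1 and CYP1B1, which oxidize polycyclic aromatic hydrocarbons and, in the case of CYP1B1, estrogens, and which are the textbook targets of AHR. The fallers were spread over 5 families and included CYP24A1, SULT2B1, AKR1C3, GSTA4 and GSTA5. The median change of the member probes was -0.11, against 0.03 for all tested probes. By family it was lowest in the sulfotransferases, at -0.74, then the carboxylesterases at -0.30, the aldehyde dehydrogenases at -0.29 and the glutathione S-transferases at -0.24, and it was -0.08 in AKR1, 0.03 in the P450s, 0.38 in the quinone dehydrogenases and 0.42 in the UGT family. With normexp background correction (offset 50), which models background as part of each spot's signal, the number of members called was 6 and not 17, and the share of all tested probes fell to 2.2%.

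CYP1A1 (hg19 chr15:75012562-75012621) read -2.95 and -3.30 in WT and -1.27 and -1.39 in WT+NU6102. It read -3.63 and -3.88 in CDK2 KO and -2.45 and -2.32 in R50. The 4 groups did not overlap, with WT+NU6102 the highest, R50 next and CDK2 KO the lowest. The rise with NU6102 was 3.47-fold (log2 1.79 ± 0.15 SE, limma adjusted p = 0.000492). R50, kept in the higher concentration, stood 0.74 above WT (adjusted p = 0.0219, under the 2-fold limit), and 1.37 above CDK2 KO (adjusted p = 0.00173), where normexp correction gave 0.74. It was lower than WT+NU6102 by 1.06 (adjusted p = 0.002), a call lost without R50 replicate 1 (-0.99) or WT+NU6102 replicate 1 (-0.998) and with normexp correction (-0.76). The sequence before the CYP1A1 start is shown because AHR binds the core GCGTG. The window is the 250 bases upstream of the RefSeq start on the minus strand (GRCh38.p14, chr15:74725529-74725778), with GCGTG in capitals.
CYP1A1: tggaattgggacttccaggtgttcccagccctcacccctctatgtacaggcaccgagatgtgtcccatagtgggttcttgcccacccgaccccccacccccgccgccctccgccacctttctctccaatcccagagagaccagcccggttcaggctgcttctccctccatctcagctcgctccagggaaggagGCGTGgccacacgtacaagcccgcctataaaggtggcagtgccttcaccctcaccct
Within these 250 bases, with both strands searched, the core occurred once, its first base 57 bases before the start. Bases further upstream were not searched. The same 5 letters were present in 32.2% of all 35116 RefSeq windows of this length and in 22 of 81 windows (27.2%) of tested members.

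CYP1B1 had 2 probes. On the first the WT arrays read -2.24 and -2.42 and the WT+NU6102 arrays -1.003 and -1.14, a rise of 1.26 ± 0.12 (SE, limma adjusted p = 0.000776), which was 0.94 with normexp correction. CDK2 KO read -3.12 and -3.20 and R50 -2.74 and -3.02, both below WT, by 0.83 (adjusted p = 0.00539) and 0.55 (adjusted p = 0.0278). On this probe R50 lay below WT, where on CYP1A1 it lay above. The second probe gave 0.20 with NU6102 (adjusted p = 0.748), with WT arrays at -3.81 and -2.36, and was not above background in R50, which was at least 3.38-fold lower than WT (adjusted p = 0.0359). Bounds of this kind compare the mean of the brighter group with that of the dim group. Each dim array's value was first raised, where lower, to the lowest signal that counted as well above background on that array. The words at least cover only the missing signal of the dim group, and the spread between arrays is not allowed for. CYP1B1 had no promoter entry in the table used.

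Of the other genes around AHR, 8 of 9 were tested. TIPARP, an AHR target that in turn restrains the receptor, rose with NU6102 by 1.34 (limma adjusted p = 0.000139) and in CDK2 KO by 1.104 (adjusted p = 0.000235), and its 0.63 in R50 was under the 2-fold limit. AHR itself read 0.76 and 0.78 in WT, 1.21 and 1.09 in WT+NU6102, 0.74 and 0.73 in CDK2 KO and 1.96 and 1.90 in R50, a rise of 1.16 in R50 (adjusted p = 0.000392). The AHR repressor AHRR was 1.53 higher in R50 than in WT (adjusted p = 0.017) and 0.24 higher with NU6102 (adjusted p = 0.523). NQO1, a quinone reductase induced through both AHR and NRF2, gave 0.29, 0.26 and 0.42 in WT+NU6102, CDK2 KO and R50 (adjusted p = 0.0411, 0.0723 and 0.0241), in no case by 2-fold.

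**Figure D2:**
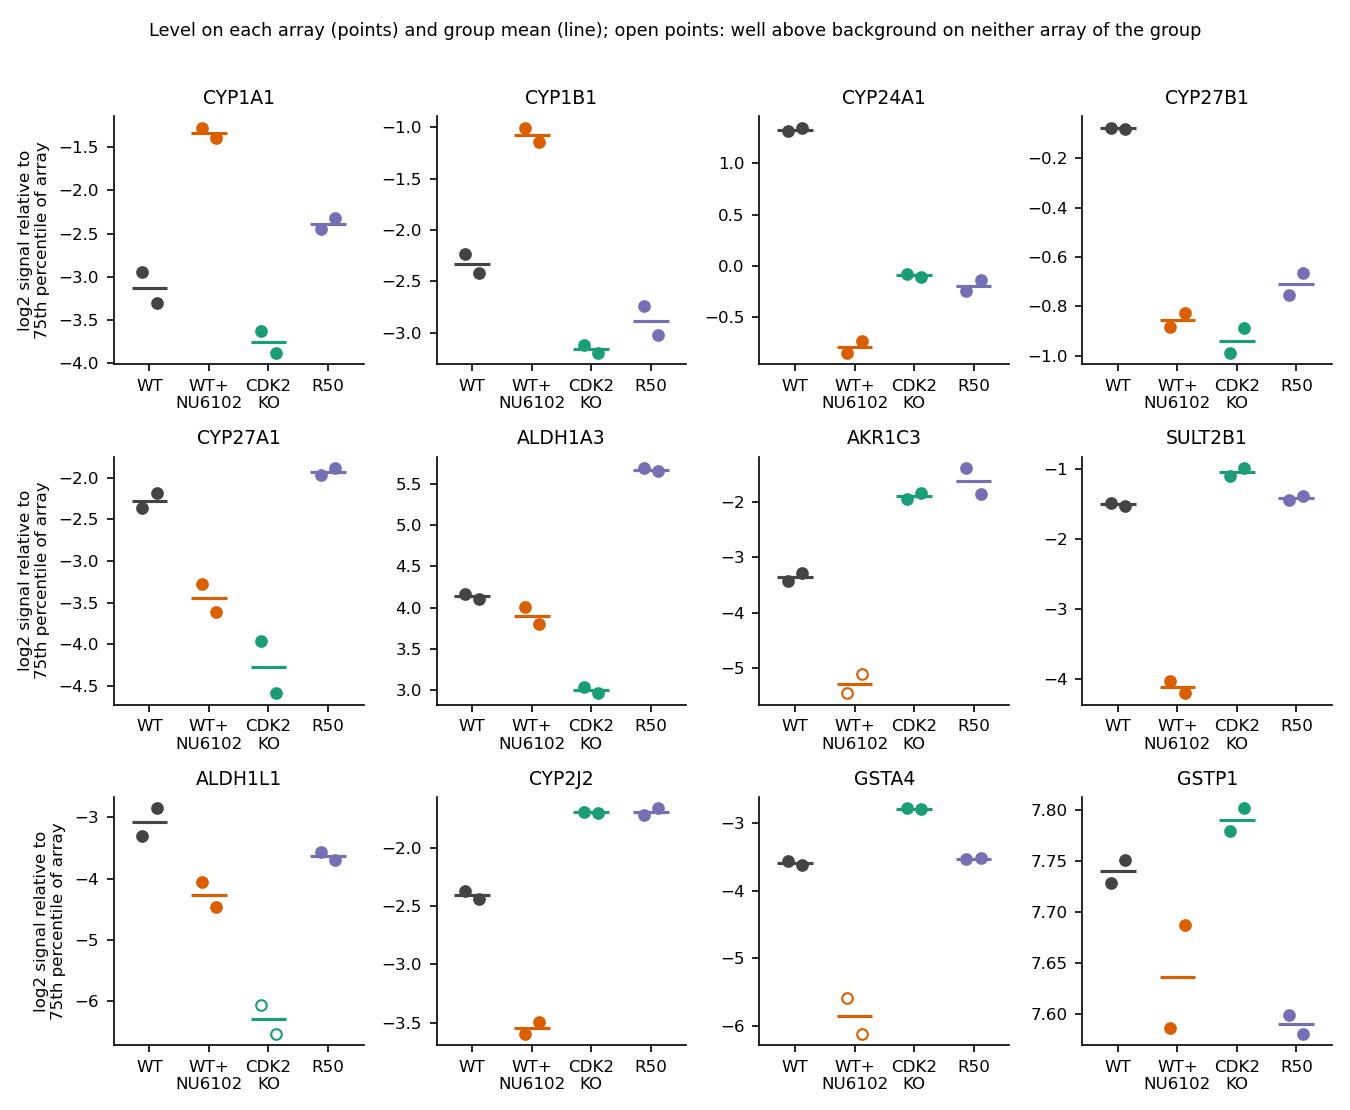
Levels of 12 members on each of the 8 arrays (vertical axis, log2 signal relative to the array's 75th percentile, a separate scale for each gene) by group, with lines at group means and open points where neither array of a group was well above background. CYP1A1 and CYP1B1 are highest in WT+NU6102, CYP24A1 is highest in WT, and GSTP1 spans only 7.58 to 7.80.

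Of the vitamin D enzymes, CYP24A1 was called lower than WT in all 3 other groups. CYP24A1, the mitochondrial hydroxylase that inactivates calcitriol, read 1.31 and 1.35 in WT, -0.85 and -0.73 in WT+NU6102, -0.08 and -0.10 in CDK2 KO and -0.25 and -0.14 in R50. All 6 arrays of the other groups lay below both WT arrays. The falls were 2.12, 1.42 and 1.52 (SE 0.06, limma adjusted p = 8.54e-05, 0.000133 and 0.000297), and a second probe gave -2.46, -1.40 and -1.43. CYP27B1, which makes calcitriol, read -0.08 on both WT arrays and between -0.99 and -0.67 on the other 6, lower by 0.78, 0.86 and 0.63 (adjusted p = 0.000417, 0.000497 and 0.00257), under the 2-fold limit. CYP2R1, the main 25-hydroxylase, gave 0.18, -0.18 and -0.03 (adjusted p = 0.0534, 0.0723 and 0.752). The vitamin D receptor VDR, whose activity raises CYP24A1, was 0.43 higher with NU6102 (adjusted p = 0.00261) and differed from WT by -0.12 and 0.07 in CDK2 KO and R50 (adjusted p = 0.183 and 0.427). The 3 comparisons share the WT arrays, so these falls are not independent of each other.

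CYP27A1, which hydroxylates sterols and vitamin D in mitochondria, separated the lines instead. It read -2.36 and -2.19 in WT, -3.28 and -3.61 in WT+NU6102, -3.96 and -4.59 in CDK2 KO and -1.97 and -1.88 in R50. The groups did not overlap, with R50 highest and CDK2 KO lowest. It was lower by 1.17 with NU6102 and by 2.00 in CDK2 KO (SE 0.23, limma adjusted p = 0.00873 and 0.0023), which normexp correction made -0.62 and -0.97. Between R50 and CDK2 KO, on 1 slide, the difference was 2.35 (adjusted p = 0.00118), or 1.26 with normexp correction.

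With NU6102, SULT2B1 and SULT1A2 fell among the sulfotransferases. SULT2B1, which sulfates cholesterol and other hydroxysteroids, read -1.49 and -1.52 in WT and -4.04 and -4.21 in WT+NU6102, against -1.11 and -0.99 in CDK2 KO and -1.45 and -1.39 in R50. The WT+NU6102 arrays lay below all others and the CDK2 KO arrays above all others, and the fall with NU6102 was 2.62 on the log2 scale (a fold of 0.163, SE 0.08, limma adjusted p = 8.54e-05), or 1.45 with normexp correction. In R50 it was 0.09 from WT (adjusted p = 0.463). SULT1A2, a phenol sulfotransferase, read 2.001 and 2.01 in WT, 0.90 and 0.80 in WT+NU6102, 2.34 and 2.34 in CDK2 KO and 2.22 and 2.22 in R50. It fell with NU6102 by 1.15 (adjusted p = 0.000131). The probes named SULT1A4 gave -0.92 and -0.68 with NU6102 and 0.74 and 0.77 in R50. The SULT1A genes are near-identical copies, and whether their probes read more than 1 of them was not tested. Over all 9 sulfotransferase probes the median was -0.74 with NU6102, 0.34 in CDK2 KO and 0.09 in R50, with 2 called lower in the first and none called in the others.

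Among the glutathione S-transferases, the alpha-class GSTA4 and GSTA5 dropped below background with NU6102. GSTA4, which conjugates the lipid peroxidation product 4-hydroxynonenal, read -3.56 and -3.62 in WT, -2.78 and -2.79 in CDK2 KO and -3.53 and -3.52 in R50, and was not above background in WT+NU6102, at least 2.59-fold lower than WT (limma adjusted p = 0.00035). A second GSTA4 probe, also not above background in WT+NU6102, was not called there (adjusted p = 0.078) or between R50 and WT+NU6102 (adjusted p = 0.113). GSTA5 behaved alike, at least 1.47-fold lower (adjusted p = 0.000377), and whether the probes of these related genes read each other's transcripts was not tested. With normexp correction the fitted falls were 0.62 and 0.90. GSTP1, the pi-class enzyme that predominates in many tumours, stayed between 7.58 and 7.80 on all arrays, and GSTO1 between 4.47 and 4.59. GSTK1, of mitochondria and peroxisomes, gave -0.24, 0.16 and 0.30 (adjusted p = 0.0794, 0.226 and 0.0617). The microsomal MGST1 was 0.66 higher in CDK2 KO (adjusted p = 0.000826), under the 2-fold limit. None of the 19 GST and MGST probes was called in CDK2 KO or in R50 against WT.

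CYP2J2, ALDH6A1, CYP2U1 and ALDH1L1 were called lower with NU6102, and none of them was called in R50 against WT. CYP2J2, an arachidonic acid epoxygenase, read -2.37 and -2.44 in WT, -3.60 and -3.49 in WT+NU6102, -1.69 and -1.69 in CDK2 KO and -1.71 and -1.66 in R50. It fell by 1.14 with NU6102 (limma adjusted p = 0.000165), or by 0.61 with normexp correction, and was 0.71 and 0.72 above WT in CDK2 KO and R50. ALDH6A1, of valine and thymine breakdown, read 0.57 and 0.59 in WT and -0.60 and -0.57 in WT+NU6102, with CDK2 KO and R50 between 0.41 and 0.67. Its fall was 1.16 (adjusted p = 0.000121). CYP2U1, a long-chain fatty acid hydroxylase, fell by 1.19 (adjusted p = 0.00171), a call lost without WT+NU6102 replicate 1 (-0.97) or with normexp correction (-0.90). ALDH1L1, a cytosolic folate dehydrogenase, read -3.31 and -2.85 in WT, -4.06 and -4.47 in WT+NU6102 and -3.56 and -3.69 in R50, both R50 arrays lying below both WT arrays (-0.54, adjusted p = 0.165). Its fall of 1.18 (adjusted p = 0.0107) was lost without WT replicate 2 (-0.95) or WT+NU6102 replicate 2 (-0.98) and with normexp correction (-0.54).

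AKR1C3, which reduces prostaglandins and makes testosterone from androstenedione, was lower than WT in WT+NU6102 and higher than WT in CDK2 KO and R50. It read -3.43 and -3.28 in WT, -1.94 and -1.83 in CDK2 KO and -1.37 and -1.85 in R50, and neither WT+NU6102 array (-5.47 and -5.12) was above background. WT+NU6102 was at least 3.05-fold lower than WT (limma adjusted p = 0.000839), while CDK2 KO was 1.47 and R50 1.74 higher (SE 0.19, adjusted p = 0.00373 and 0.00394). Against WT+NU6102, R50 was at least 10.2-fold higher (adjusted p = 7.5e-05), while R50 and CDK2 KO differed by 0.27 (adjusted p = 0.318). Normexp correction gave -0.68 with NU6102 and 0.96 in CDK2 KO, both under 2-fold. The aldose reductase AKR1B1 was 0.66 higher in CDK2 KO and 0.57 higher in R50, and AKR1A1 stayed between 2.08 and 2.28 on all arrays. The 7 AKR1 probes had medians of -0.08, -0.28 and -0.14 in the 3 comparisons with WT.

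In CDK2 KO against WT, 9 member probes were called higher and 7 lower, where 2.47% and 2.29% of all tested probes were. The median change of members was 0.06 and that of all tested probes 0.02. Apart from AKR1C3, the higher ones were CYP2S1, CYP20A1, ALDH3A1, ALDH7A1 and CES1, and the lower ones CYP24A1, CYP27A1, CYP1B1 on its second probe, ALDH1A3, ALDH1L1 and ALDH8A1. Normexp correction left 4 called (2.11% of all tested probes), and a slide effect cannot be told apart from the knockout.

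CYP2S1, a P450 of epithelia that acts on retinoids and lipids, read -1.39 and -1.41 in WT, -1.19 and -1.18 in WT+NU6102, -0.41 and -0.29 in CDK2 KO and -0.85 and -0.84 in R50. The 4 groups did not overlap, and CDK2 KO exceeded WT by 1.05 (limma adjusted p = 0.000201), with 1.07 on the second probe. The first probe's rise was just under the limit without CDK2 KO replicate 2 (0.99), and was 0.86 with normexp correction. ALDH3A1, which oxidizes aromatic and lipid aldehydes, read -2.97 and -2.70 in WT and -1.77 and -1.82 in CDK2 KO, 1.04 higher (adjusted p = 0.00211). That call was lost without WT replicate 1 (0.90), with quantile normalization (0.97) and with normexp correction (0.70). Its second probe was above background only in CDK2 KO, at least 2.31-fold over WT (adjusted p = 0.0164).

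The probes of some members disagreed. ALDH7A1, which oxidizes the lysine-derived semialdehyde and betaine aldehyde, had 3 tested probes: in CDK2 KO the first fell by 0.59 (limma adjusted p = 0.000676) and the others rose by 1.18 and 1.37 (adjusted p = 0.000531 and 0.00385). The first read 3.16 and 3.12 in WT and 2.51 and 2.57 in CDK2 KO, and the second -1.93 and -1.91 and -0.64 and -0.85, with no overlap on either. No single direction can be given for this gene. CES1, a carboxylesterase that activates and clears ester drugs, gave -0.17 on 1 probe (adjusted p = 0.603), while another was above background in CDK2 KO alone, at least 1.86-fold over WT (adjusted p = 0.00024). CYP20A1, an orphan P450, gave 0.79 (adjusted p = 0.00135) on 1 probe and 1.36 (adjusted p = 0.00013) on another. CYP4F2 differed between its probes with NU6102, where 1 gave 0.17 (adjusted p = 0.396) and the other was not above background.

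On the lower side, ALDH1L1 was not above background in CDK2 KO, at least 4.08-fold lower than WT (limma adjusted p = 0.000602). R50 was on that probe at least 2.80-fold above CDK2 KO (adjusted p = 0.000941), with fitted values of -0.91 and 0.72 after normexp correction. ALDH8A1, which acts in kynurenine breakdown, was at least 2.19-fold lower than WT in CDK2 KO (adjusted p = 0.0277). That call was lost without any 1 of the 4 arrays concerned, with fitted values from -1.41 to -0.94 and adjusted p from 0.0513 to 0.118, and also with normexp correction (-0.33). It was lost too with no filter on dim probes (adjusted p = 0.0729) and with a replicate block (adjusted p = 0.0525).

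ALDH1A3, a retinaldehyde dehydrogenase that makes retinoic acid, differed between the 2 lines by more than any other member above background throughout. It read 4.17 and 4.11 in WT, 4.004 and 3.80 in WT+NU6102, 3.05 and 2.96 in CDK2 KO and 5.69 and 5.65 in R50. The R50 arrays lay above all others and the CDK2 KO arrays below all others. Against WT it fell in CDK2 KO by 1.13 and rose in R50 by 1.53 (SE 0.08, limma adjusted p = 0.000509 and 0.000445). Within their slide, R50 exceeded CDK2 KO by 2.67, or 6.35-fold (adjusted p = 3.84e-05). ALDH1A1, which has the same substrate, gave -0.08, 0.15 and 0.11 (adjusted p = 0.559, 0.296 and 0.497). CYP26A1, the hydroxylase that clears retinoic acid, gave -0.29, 0.41 and 0.42, none called.

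In R50 against WT, 6 member probes were called higher and 3 lower, where 1.64% and 0.955% of all tested probes were. The higher were CYP4F3, CYP4F2 with both its probes, CYP4F12, ALDH1A3 and AKR1C3. The lower were CYP24A1 with both its probes and CYP1B1 on its second probe alone. The median change of members was 0.08 and that of all tested probes -0.04. The methods' general t-test, at an unadjusted p under 0.05 and with the 2-fold limit used here, gave 7 members (2.33% of all tested probes). After Benjamini-Hochberg adjustment it gave none (0.0105%), where limma gave 9. To define differing genes on the arrays, the study itself used a one-way ANOVA at an adjusted p under 0.001. These counts do not follow that criterion. For its pathway analysis of the arrays the study also names a t-test of R50 against WT.

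The CYP4F genes, omega-hydroxylases of long-chain fatty acids, leukotrienes and vitamins E and K, form a cluster on chromosome 19. In hg19 order along it the tested members were CYP4F22, CYP4F8, CYP4F3, CYP4F12, CYP4F2 and CYP4F11. CYP4F3, which inactivates leukotriene B4, read -4.22 and -4.56 in WT, -4.22 and -5.00 in CDK2 KO and -2.30 and -2.25 in R50, with WT+NU6102 not above background and CDK2 KO above it on 1 array. R50 exceeded WT by 2.11 (SE 0.26, limma adjusted p = 0.00572), or 1.101 with normexp correction, and WT+NU6102 at least 6.42-fold (adjusted p = 0.000353). Both R50 arrays lay above the 6 others.

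CYP4F2, a hydroxylase of arachidonic acid and vitamin K, read -3.40 and -3.47 in WT, -3.06 and -3.48 in WT+NU6102, -3.42 and -3.24 in CDK2 KO and -1.89 and -1.95 in R50. CYP4F12, which also takes antihistamines, read -1.98 and -2.10, -1.51 and -1.74, -2.30 and -2.21 and -0.90 and -0.75 in the same order of groups. In R50 the first was 1.52 and the second 1.21 above WT (adjusted p = 0.00264 and 0.00187), the latter 0.98 with normexp correction. CYP4F8, a prostaglandin hydroxylase, and CYP4F11 were 0.78 and 0.72 above WT (adjusted p = 0.00732 and 0.00247), under the 2-fold limit. CYP4F22, which makes the skin's ultra-long omega-hydroxy fatty acids, was the exception at -0.42 (adjusted p = 0.0614). Within the slide, R50 exceeded CDK2 KO by 2.33 for CYP4F3, 1.43 for CYP4F12, 1.41 for CYP4F2 and 1.37 for CYP4F11 (adjusted p = 0.00202, 0.000485, 0.00149 and 0.00016), with CYP4F2 at 0.94 and CYP4F3 at 1.16 after normexp correction. Whether probes of these related genes read each other's transcripts was not tested.

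**Figure D3:**
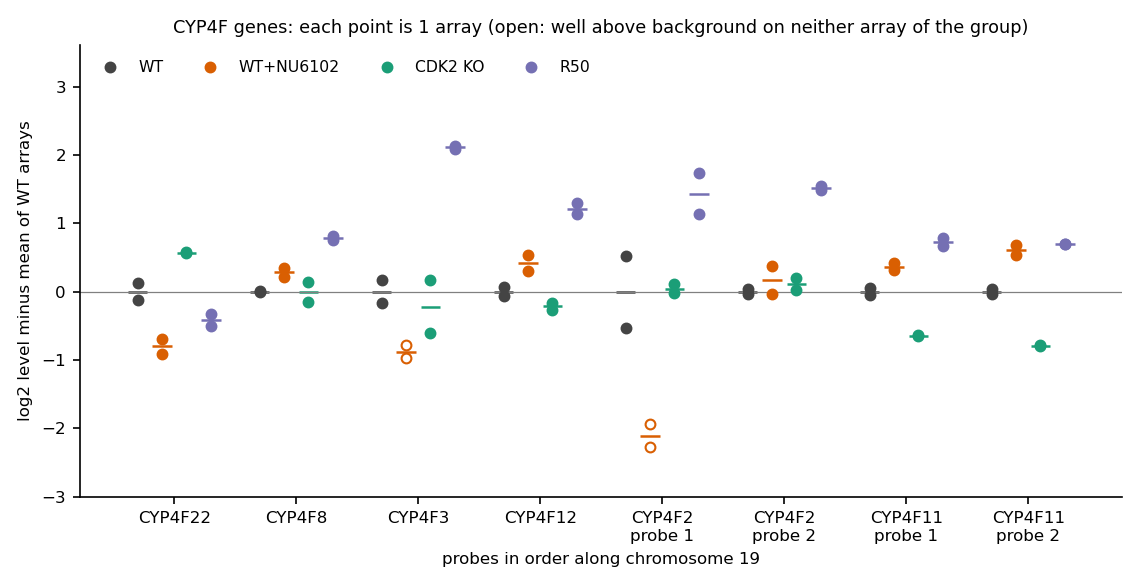
Log2 level minus the mean of the WT arrays (vertical axis) for the 8 tested CYP4F probes in their order along chromosome 19 (horizontal axis). Points are arrays, lines group means and open points groups with neither array well above background. R50 lies above WT for every probe but CYP4F22, with CYP4F3 the highest at 2.11.

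The windows before 5 starts of 4 CYP4F genes that rose in R50 are given because the members moved together and are copies of each other. Each is the 250 bases upstream of a RefSeq start (GRCh38.p14), CYP4F8 at chr19:15614968-15615217 and CYP4F3 at chr19:15641062-15641311 on the plus strand, and CYP4F2 at chr19:15898075-15898324, CYP4F11 start 1 at chr19:15934868-15935117 and CYP4F11 start 2 at chr19:15934530-15934779 on the minus strand. Capitals mark bases in a run of 12 or more that another of these windows also holds. CYP4F12 had no entry in the table.
CYP4F8: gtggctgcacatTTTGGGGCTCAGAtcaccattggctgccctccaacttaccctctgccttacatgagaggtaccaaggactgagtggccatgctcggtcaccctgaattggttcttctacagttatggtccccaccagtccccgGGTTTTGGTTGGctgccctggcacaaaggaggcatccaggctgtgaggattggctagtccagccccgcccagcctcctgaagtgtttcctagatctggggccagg
CYP4F3: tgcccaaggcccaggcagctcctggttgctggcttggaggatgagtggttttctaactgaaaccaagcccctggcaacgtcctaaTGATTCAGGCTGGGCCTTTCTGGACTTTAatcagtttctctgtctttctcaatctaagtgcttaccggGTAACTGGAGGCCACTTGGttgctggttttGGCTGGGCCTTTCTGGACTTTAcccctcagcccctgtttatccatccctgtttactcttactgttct
CYP4F2: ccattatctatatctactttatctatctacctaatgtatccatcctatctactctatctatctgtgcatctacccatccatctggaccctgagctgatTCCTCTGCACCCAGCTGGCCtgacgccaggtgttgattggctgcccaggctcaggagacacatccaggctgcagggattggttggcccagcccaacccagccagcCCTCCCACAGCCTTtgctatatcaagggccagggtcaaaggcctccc
CYP4F11 start 1: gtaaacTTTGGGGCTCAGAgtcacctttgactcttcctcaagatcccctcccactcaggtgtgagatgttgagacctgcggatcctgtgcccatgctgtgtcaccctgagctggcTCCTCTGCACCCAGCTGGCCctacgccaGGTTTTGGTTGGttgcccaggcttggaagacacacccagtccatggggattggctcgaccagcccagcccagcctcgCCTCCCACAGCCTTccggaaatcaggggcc
CYP4F11 start 2: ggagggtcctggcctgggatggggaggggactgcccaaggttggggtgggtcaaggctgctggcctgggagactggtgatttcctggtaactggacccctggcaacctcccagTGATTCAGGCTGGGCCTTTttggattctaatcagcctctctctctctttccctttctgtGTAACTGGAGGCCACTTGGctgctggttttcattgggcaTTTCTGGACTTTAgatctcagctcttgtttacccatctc
CYP4F2 and the first CYP4F11 window shared an unbroken run of 20 bases, and the longest shared by CYP4F3 and the second CYP4F11 window had 19. None of the 35110 other windows shared a run that long with CYP4F2 or CYP4F3. CYP4F8 and the first CYP4F11 window shared 13 bases, as did 97 other windows (0.276%) with CYP4F8.

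The neighbourhood of the cluster was read as well, in a window 500 kb to either side that was chosen after values had been seen. The 8 CYP4F probes had a median of 0.997 in R50 against WT and 1.40 against CDK2 KO, with 4 and 6 called higher. Other genes in the window, 31 probes of 26 genes, had medians of -0.09 and -0.05, with 4 called higher and none lower against WT. Among them was UCA1, a long non-coding RNA between CYP4F12 and CYP4F2 (hg19 chr19:15946035-15946092) and no member, named after its values were seen. It read 4.66 and 4.57 in WT, 2.98 and 2.98 in WT+NU6102, 4.48 and 4.49 in CDK2 KO and 6.73 and 6.74 in R50. R50 was 2.12 above WT and 2.25 above CDK2 KO (SE 0.05, limma adjusted p = 9.06e-05 and 2.07e-05), and NU6102 lowered it by 1.64 (adjusted p = 8.54e-05).

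Between R50 and CDK2 KO, 11 member probes were called higher and 5 lower in R50, where 2.81% and 2.38% of all tested probes were. The members' median was -0.04 and that of all tested probes -0.06. Besides the CYP4F genes, ALDH1A3, CYP27A1, CYP1A1 and ALDH1L1 were higher in R50. Lower in R50 were 2 probes of ALDH7A1, by 1.43 and 1.04 (limma adjusted p = 0.000259 and 0.00852), the second ALDH3A1 probe, at least 2.25-fold (adjusted p = 0.0168), and a CES1 probe, at least 1.94-fold (adjusted p = 0.000106). These arrays lay on 1 slide, and the groups differ in genotype, in selection and in the presence of the inhibitor.

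R50 and WT+NU6102 both held NU6102, at 50 µM in continuous culture and at 20 µM for 24 h, and they lay on different slides. Of the member probes, 24 were called higher in R50 and 3 lower, where 7.58% and 3.28% of all tested probes were. The higher ones include the second ALDH3A1 probe, which was well above background in neither group and so gives no direction. The members' median was 0.27, against -0.06 for all tested probes. SULT2B1 was 2.71 higher in R50 (limma adjusted p = 1.92e-05), CYP2J2 1.86 (adjusted p = 2.12e-05), SULT1A4 1.66 (adjusted p = 2.06e-05) and SULT1A2 1.37. GSTA4 was at least 2.71-fold higher (adjusted p = 0.000164) and GSTA5 at least 1.69-fold (adjusted p = 0.000159). MGST2, GSTM1, ALDH3B1 and ALDH5A1 were 1.04, 1.11, 1.05 and 1.01 higher. The lower ones were CYP1A1, by 1.06, and CYP1B1, whose first probe was lower by 1.81 (adjusted p = 0.000143) and whose second was at least 3.88-fold lower (adjusted p = 0.0111). For genes that fell with NU6102 and lay near WT in R50, such as SULT2B1, GSTA4 and ALDH6A1, this difference holds the same WT+NU6102 values as the comparison with WT and adds no independent evidence. Normexp correction gave 1.53 for SULT2B1, 1.13 for CYP2J2, 1.05 for GSTA5 and 0.70 for GSTA4.

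**Figure D4:**
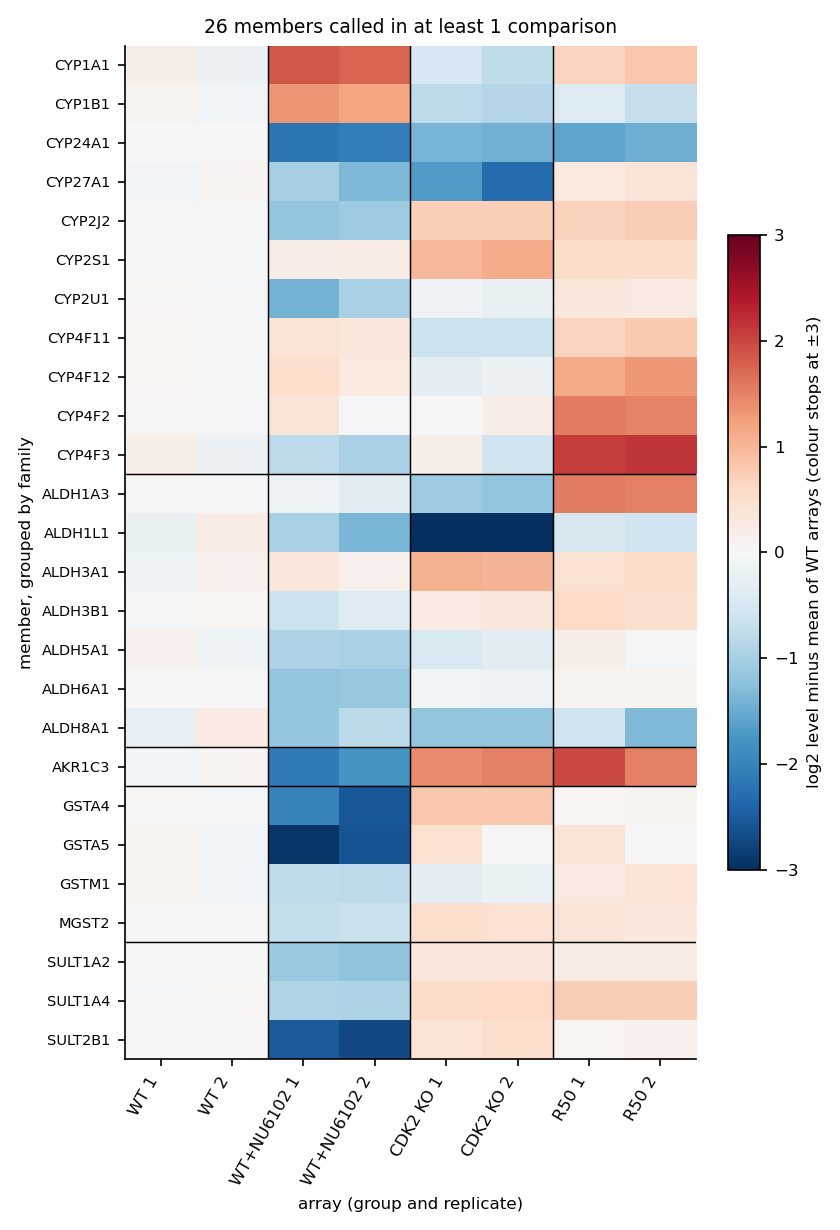
Level of 26 members on each of the 8 arrays minus the mean of the WT arrays (colour, log2, ending at ±3), for members whose representative probe was called in at least 1 of the 5 comparisons, grouped by family. The WT+NU6102 columns are red for CYP1A1 and CYP1B1 and blue for most other rows, and the R50 columns are red for CYP4F2, CYP4F3, CYP4F12, ALDH1A3 and AKR1C3.

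Of the remaining named members, CYP2W1, CYP4F30P and CES2 were called in no comparison. CYP2W1, a P450 known from fetal gut and colorectal tumours, stayed between 7.28 and 7.52 on the 8 arrays, with adjusted p from 0.0837 to 0.769 over the 5 comparisons (limma). The pseudogene CYP4F30P stayed between 1.91 and 2.13. ALDH3A2, the fatty aldehyde dehydrogenase, read 3.20 and 3.21 in WT and 3.74 and 3.77 in R50, 0.55 higher (adjusted p = 0.00213), and was 0.86 higher in R50 than in WT+NU6102, where its other probe was called at 1.29 (adjusted p = 0.000116). CES2, the intestinal carboxylesterase that activates irinotecan, stayed between -0.90 and -0.47, on the 8 arrays. NQO2 was 0.44 higher with NU6102 (adjusted p = 0.00132) and 0.29 and 0.28 lower in CDK2 KO and R50, with R50 0.72 below WT+NU6102 (adjusted p = 0.000159). The UGT probes did not differ from WT by 2-fold in any group.

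Genes that regulate or serve these enzymes were counted from lists of their own. Of 16 tested xenobiotic nuclear receptors none was called with NU6102, although 2 passed the adjusted p higher and 8 lower. NR5A2, a receptor of bile acid and steroid synthesis, was 3.88 lower in CDK2 KO than in WT (limma adjusted p = 2.01e-05), at -3.49 and -3.65 against 0.27 and 0.34, while R50 read 0.25 and 0.11. The pregnane X receptor NR1I2 and HNF4A were above background on no array. Of 28 tested NRF2 pathway genes outside the families, OSGIN1 and SRXN1 were called higher with NU6102 (1.37 and 1.04) and the exporter ABCC3 lower (-2.13, adjusted p = 8.54e-05). The exporter ABCC2 was called higher in CDK2 KO (1.48) and in R50 (1.21), and the cystine carrier SLC7A11 was higher in R50 than in CDK2 KO (1.44). Of the 9 genes that pass electrons to P450s or assist them, CYB5B fell with NU6102 by 1.77 (adjusted p = 0.000121) and CYB5A was 1.22 higher in CDK2 KO (adjusted p = 7.65e-05). The P450 reductase POR was called in no comparison.

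Retinoid handling genes outside the families were on the array for 13 of 14 and tested for 11. With NU6102, 4 of them were called lower and none higher. DHRS3, a retinaldehyde reductase, read 3.48 and 3.70 in WT, 1.40 and 1.45 in WT+NU6102 and 3.88 to 3.99 in CDK2 KO and R50, a fall of 2.16 (limma adjusted p = 0.0001). BCO2, a carotenoid oxygenase, fell by 1.79 (adjusted p = 0.000187), and LRAT and STRA6 were not above background in WT+NU6102. In CDK2 KO, BCO2 and STRA6 were called lower and the retinoic acid carrier CRABP2 higher by 1.01 (adjusted p = 0.000788).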

How the data were processed

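RNA of 8 HCT-116 samples was hybridised by the authors to Agilent 8x60K human expression arrays of 60-base probes, 1 colour (Cy3), and read with Agilent Feature Extraction (version 11.5.1.1 per the labels). The deposited scanner files hold background-subtracted processed intensity per spot, which was used here. A deposited table of the whole series holds log2 values for 28719 probes. They matched the values computed here once each probe's median over the 8 arrays was subtracted, with a correlation of at least 0.9988 on every array. They lie a median of 0.00536 from these centred values, after the median difference of each array was removed, and served as an alternative.

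Control spots and outlier-flagged spots were left out, with 31 probes that then had no usable spot on some array. Spots of a probe were averaged, each array's 75th percentile was subtracted on the log2 scale, and limma 3.58.1 (R 4.3.3, data.table version 1.17.8) fitted all 4 groups together to the 28677 probes that some group had well above background on each of its arrays, with Benjamini-Hochberg adjustment over all probes. Thresholds were an adjusted p of 0.05 with a 2-fold change for contrasts and 0.001 for the F-test. The fit was tested on simulated data with known changes. With 2 arrays a group, the number of arrays limits the precision.

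Members and lists were chosen with earlier results of these data known. Genes named are the 6 largest called rises and falls of each comparison, up to 4 with a bound, the 2 brightest of each family, members whose probes disagreed and called genes of the lists. Where a gene had several probes, the brightest stands for it, and others are given as its other probes. Gene names and hg19 positions are those of the array files. Promoter windows came from RefSeq (GRCh38.p14), with entries for 98 of 143 member genes and 65 of 85 tested ones. Replicate numbers did not pair the samples, since deviations of same-numbered arrays correlated at only -0.03 to 0.05. A few genes of the families and lists are not reported here.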

Additional observations from a re-analysis of the deposited data

Results flagged for a closer look

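Differences between the effects of 2 conditions were taken from the same limma model, so that the WT arrays that they share cancel. Members were picked because both changes against WT were called, in opposite directions. For pairs with R50 the direct difference had to be called as well. The sizes and adjusted p below follow in part from that choice and are not further evidence. AKR1C3 fell below background with NU6102 and was called higher in CDK2 KO and in R50. Its fitted change in CDK2 KO exceeded that with NU6102 by 3.41 (log2, limma adjusted p = 8.93e-05), and its change in R50 exceeded it by 3.68 (adjusted p = 7.5e-05). The second ALDH3A1 probe, well above background on 2 of 8 arrays, both of CDK2 KO, had a fitted difference of 2.58 between CDK2 KO and WT+NU6102 (adjusted p = 0.000673). Since neither WT nor WT+NU6102 was above background there, that probe gives no direction for NU6102, and the first ALDH3A1 probe, above background on all 8 arrays, gave 0.23 with NU6102 (adjusted p = 0.157). The dimmer CYP4F2 probe, well above background on 5 arrays, differed by 3.54 between R50 and WT+NU6102 (adjusted p = 0.000735). For ALDH1A3, above background on all 8 arrays, the change in R50 exceeded that in CDK2 KO by 2.67 (adjusted p = 3.84e-05), with both arrays of R50 above and both of CDK2 KO below WT. The values of AKR1C3, ALDH3A1 and CYP4F2 against WT+NU6102 use fitted levels of arrays that were not well above background, so their size is uncertain. The differences between CDK2 KO or R50 and WT+NU6102 also lie across the 2 slides.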

How the results depend on the processing

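None of the 48 called values of the 21 members followed here reversed under any alternative, and 22 of these calls were lost under at least 1. They were lost mostly with normexp background correction, which shrinks the changes of dim probes. A change of sign between fits without a call was not counted as a reversal. Other members named above were not followed in this way. Members passing the F-test, 37 as reported, were 11 with no filter on dim probes (1.83% of all probes tested), 60 with a trended prior (40.8%), 18 with a replicate block (7.2%), 15 with the methods' ANOVA (7.84%), 77 at an adjusted p under 0.05 (63%), and 9 to 18 leaving out each array in turn (3.28% to 5.88%). Normexp correction called 6 members with NU6102 (2.2%), 4 in CDK2 KO (2.11%), 6 between R50 and CDK2 KO (2.26%) and 16 between R50 and WT+NU6102 (5.2%). Requiring signal on all arrays gave 11 with NU6102 (4.64%), 10 in CDK2 KO (3.28%), 5 in R50 (1.57%) and 10 between R50 and CDK2 KO (3.45%). With no minimum fold the counts were 55, 50, 44, 47 and 67 in the order used above. They made up 49.1%, 44.6%, 39.3%, 42% and 59.8% of member probes, where 44.8%, 31.1%, 22.7%, 34.7% and 51.6% of all tested probes passed. The methods' t-test, adjusted and with the 2-fold limit, gave 8 with NU6102 (3.38%), 3 in CDK2 KO (1.67%) and 7 between R50 and CDK2 KO (2.21%). In R50 it gave 0 (0.0105%), or 7 unadjusted (2.33%), where limma gave 9. Leaving out 1 array leaves 1 in its group, and the calls of these followed members that were lost that way are given with their genes above. The replicate numbers do not pair the samples, and with a replicate block 17, 14, 8, 16 and 27 were called. The shares of all tested probes were then 6.41%, 4.63%, 2.48%, 5.13% and 10.8%. Fits within 1 slide called 16 with NU6102 (6.29%) and 16 between R50 and CDK2 KO (4.86%). The 2 arrays of a group and signal near background limit the dim members most.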
